A study of Mus musculus with 6 samples.

Results

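ATP-binding cassette (ABC) transporters are membrane pumps that use ATP to move lipids, drugs, peptides, metals and metabolites across membranes. The 51 genes described here were chosen by symbol alone, as the rows named Abc followed by a subfamily letter from a to g and a number, among 31626 gene rows in each library. They fell into 16 genes of subfamily A, 11 rows of subfamily B (Abcb5 has 2 rows), 10 genes of C, 4 of D, 1 of E, 3 of F and 6 of G. The family was proposed with the large fall of Abcb1a in these libraries already known, so Abcb1a is given by its values, with no p-value. It was fitted with all genes, and the main counts of called members are also given without it.

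The RNA came from immature blood cells of C57Bl/6 mice, labelled as common myeloid progenitors (CMP). The groups were 3 Dot1l-deleted libraries, from Dot1l flox/flox cells transduced with Cre, and 3 control libraries, from Dot1l flox/flox cells transduced with a control. All 6 carried the MSCV-MN1-IRES-GFP retrovirus, which expresses the myeloid leukaemia oncogene MN1 together with a fluorescent marker, were grown in M3234 medium with FBS, IL3, IL6 and SCF, and were sorted on day 7 after transduction. DOT1L is the enzyme that methylates lysine 79 of histone H3, a mark of transcribed genes; per the title of the series, it acts together with MN1 in this leukaemia model. No library of cells with Cre and an intact Dot1l gene was used here, so the effects of Cre and of the deletion cannot be told apart. The labels do not say whether replicates came from separate animals or cultures, so the tests measure the spread between these libraries, which may be technical.

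In blood, ABC pumps are best known for drug and dye efflux. The P-glycoproteins (Abcb1a and Abcb1b in mouse, the single gene ABCB1 in human) and Abcg2 expel many drugs, and Abcg2 is the pump behind the dye-excluding side population of mouse blood stem cells. Other members work inside the cell: half-transporters of subfamily B in the mitochondrial membrane serve iron and heme handling, subfamily D imports fatty acids into peroxisomes, and subfamilies E and F lack membrane spans and act on ribosomes. Several genes of A and G move cholesterol and phospholipids out of cells.

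The promoters of 4 members are shown because 3 of these genes lie side by side on chromosome 5 and differed in level, and because the fourth, Abcg3, was the member with the highest fold of the 2 groups' means in the direction opposite to Abcb1a. They are the 300 bases around each gene's start in RefSeq on GRCm38.p6, 5′ to 3′ on the gene's own strand; capitals mark CCAAT boxes (CCAAT) and GC boxes (GGGCGG) on either strand. Abcb1a lies at chr5:8566841-8567140, Abcb1b at chr5:8797897-8798196 and Abcb4 at chr5:8893471-8893770, all on the plus strand, and Abcg3 at chr5:104982668-104982967 on the minus strand.
Abcb1a: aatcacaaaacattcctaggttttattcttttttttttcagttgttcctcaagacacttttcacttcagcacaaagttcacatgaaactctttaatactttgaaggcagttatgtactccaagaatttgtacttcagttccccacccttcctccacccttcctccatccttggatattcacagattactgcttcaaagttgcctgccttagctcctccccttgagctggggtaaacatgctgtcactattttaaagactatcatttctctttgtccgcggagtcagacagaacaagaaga
Abcb1b: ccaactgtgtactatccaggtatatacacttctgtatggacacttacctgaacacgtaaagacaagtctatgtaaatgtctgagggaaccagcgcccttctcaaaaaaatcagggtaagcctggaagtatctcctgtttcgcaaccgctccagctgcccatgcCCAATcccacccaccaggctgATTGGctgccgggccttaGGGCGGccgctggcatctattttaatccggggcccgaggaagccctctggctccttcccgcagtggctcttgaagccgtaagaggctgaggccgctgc
Abcb4: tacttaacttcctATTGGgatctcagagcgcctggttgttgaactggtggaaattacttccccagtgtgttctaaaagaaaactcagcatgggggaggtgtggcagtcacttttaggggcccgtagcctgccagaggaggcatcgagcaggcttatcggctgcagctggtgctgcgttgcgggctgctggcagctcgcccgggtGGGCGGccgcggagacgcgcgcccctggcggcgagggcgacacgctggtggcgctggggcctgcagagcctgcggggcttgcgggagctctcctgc
Abcg3: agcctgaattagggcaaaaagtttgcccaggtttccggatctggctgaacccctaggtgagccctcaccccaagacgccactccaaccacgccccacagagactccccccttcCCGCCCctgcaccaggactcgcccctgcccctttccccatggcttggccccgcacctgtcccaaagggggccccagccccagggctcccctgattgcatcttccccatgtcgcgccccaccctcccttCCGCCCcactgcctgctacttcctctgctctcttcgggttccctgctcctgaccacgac

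The Abcb1a window held none of 5 motifs searched and was 40.3% G and C, against 55% for Abcb1b, 64% for Abcb4 and 65.3% for Abcg3. Besides the CCAAT and GC boxes, the motifs searched on both strands were TATAAA, TGATTTAT (a HOX and MEIS composite) and TTGCNNAA (C/EBP). Abcb1b held 2 CCAAT boxes, 1 GC box and 1 TTGCNNAA, Abcb4 held 1 CCAAT box and 1 GC box, and Abcg3 held 2 GC boxes. Of the 51 members, 38 matched 45 RefSeq promoters; CCAAT stood in 35.6% of these, against 37.4% of all 32851 promoters. GGGCGG stood in 46.7%, against 35.7% of all; TATAAA in 15.6%, against 13.6%; and TTGCNNAA in 11.1%, against 10.8%. TGATTTAT stood in 0 of the 45, against 0.977% of all promoters. A match is only a run of letters in this window, and which start site these cells use was not measured.

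Values are FPKM, fragments per kilobase of gene relative to all mapped fragments. Being per length, they allow a rough comparison between genes, less so where genes share sequence or an estimate may have failed. Of the 51 members, 27 had a mean of at least 1 FPKM over the 6 libraries and were tested; 16 had lower values above 0, and 8 were listed at 0 in all 6 libraries. The threshold fell between Abcc2 at 1.03 and Abca4 at 1.21 FPKM just inside and Abcb4 at 0.891 and Abcc10 at 0.758 FPKM just outside. The tests compared log2(FPKM + 1) with limma over 11924 genes, a scale that understates changes of low genes, and a gene was called at a Benjamini-Hochberg adjusted p under 0.05.

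Among the 27 tested members, 5 were called higher and 7 lower in Dot1l-deleted cells, and 15 were not called; without Abcb1a the counts were 5, 6 and 15 of 26. Over all tested genes, 7.43% were called higher and 12.2% lower. The 5 called higher were Abca3, Abca13, Abcc2, Abcd2 and Abcg3, and the 7 called lower were Abca2, Abca4, Abcb1a, Abcb1b, Abcb10, Abcd3 and Abcg2. Abca4, Abca13, Abcb1a, Abcc2 and Abcg3 had a mean under 1 FPKM in one group and so passed the filter only through the other, which means they had to differ; they are given below by their values and fitted differences, with no p-value. Of the 22 with both means at least 1 FPKM, 2 were called higher, 5 lower and 15 neither. The 2 groups' values did not overlap for 19 members, 10 with the Dot1l-deleted libraries above and 9 with them below; over all tested genes these shares were 10.7% and 34.1%.

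One library was unlike the rest, the third of the Dot1l-deleted group. Its median log2 deviation from the gene means was -0.37, against 0.05 to 0.10 in the other 5 libraries, and its 10 highest rows took 38.95% of its summed FPKM, against 6.59% to 10.75%. With the FPKM as deposited, the log2 fold changes of all genes tested had a median of -0.16; after median-of-ratios scaling of the libraries it was 0.0011. With that scaling 14 members were called higher and 7 lower, beside 23% and 22.3% of all tested genes. Without the third library and without scaling the members' counts were 13 and 7, beside 2069 and 2504 of the 11924 genes tested. Without Abcb1a the counts called lower in both fits were 6. These counts include members that had to differ. Of the 22 members with both means at least 1 FPKM, 11 were called higher and 5 lower with scaling. Without the third library 10 of the 22 were called higher and 5 lower. All 12 members called as deposited, Abcb1a included, were called in the same direction in both of those fits, but 5 of them had to differ. The other calls, 2 higher and 5 lower, were of members with both means at least 1 FPKM. The 9 more called higher with scaling included Abca7, Abcb6, Abcb8, Abcb9, Abcc1, Abcc5, Abcf3 and Abcg1. The members' median log2 fold change was -0.03 as deposited and 0.15 with scaling. Their median size of change with scaling, sign left out, was 0.51, against 0.20 over all tested genes. The 0.51 includes Abcb1a and the other members that had to differ. For the 22 members with both means at least 1 FPKM it was 0.45, while the 0.20 was not restricted in this way.

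**Figure D1:**
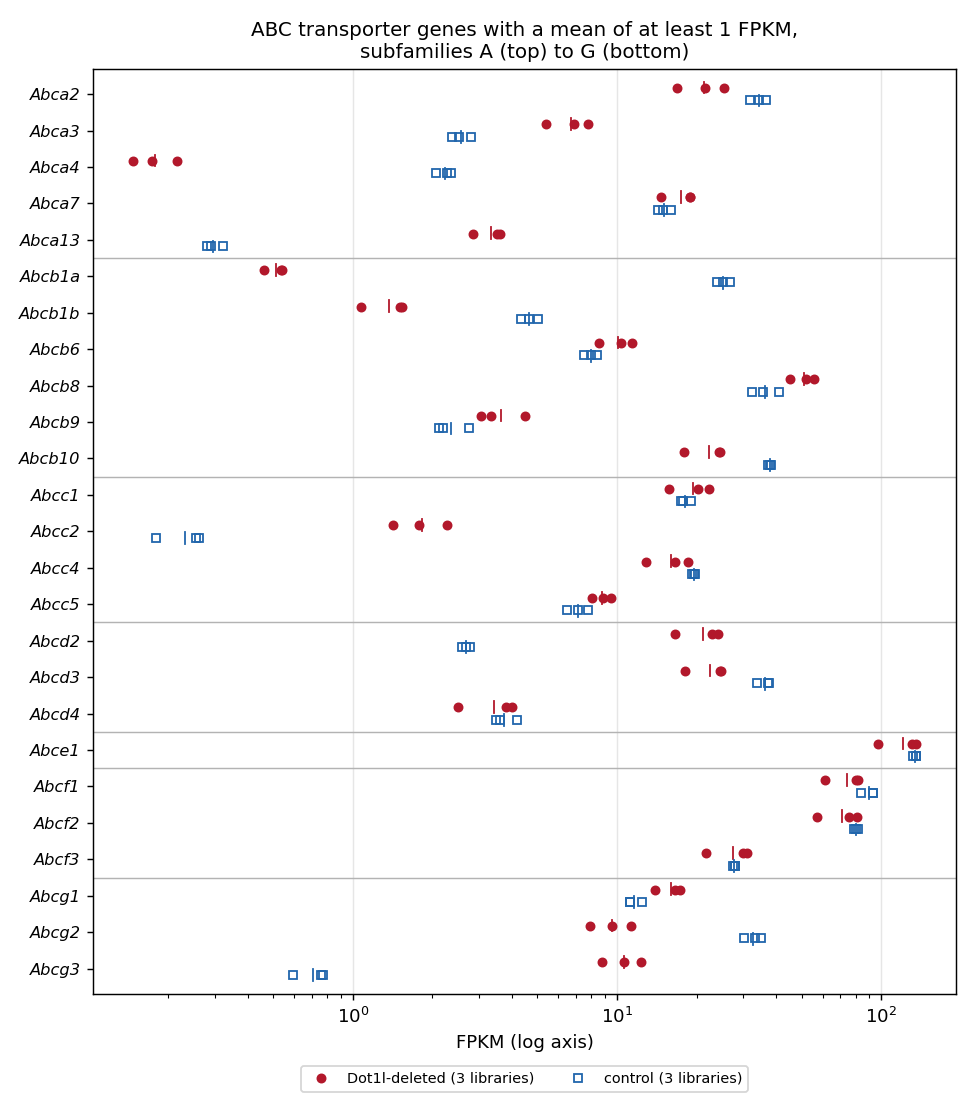
FPKM on a log axis of 25 of the 27 tested ABC transporter genes, subfamilies A at the top to G at the bottom; filled circles are the 3 Dot1l-deleted libraries, open squares the 3 control libraries, and short vertical lines the group means. Abcb1a stands at 0.463 to 0.538 FPKM in Dot1l-deleted libraries and 23.9 to 26.8 FPKM in control libraries, while Abce1 and Abcf2 overlap between the groups.

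Dot1l itself was lower in every Dot1l-deleted library. It had 8.24, 8.17 and 5.80 FPKM in Dot1l-deleted libraries, against 20.2, 22.6 and 19.6 in control libraries, a log2 fold change of -1.39 (SE 0.157, limma adjusted p = 0.0001243).

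The P-glycoprotein genes and Abcg2 come first as the best known drug pumps; they are no fixed list, and Abcb1a prompted the choice of the family. Abcb1b and Abcg2 were called lower in Dot1l-deleted cells, and Abcb1a had a lower level. The drug pumps of subfamily C, given further below, did not all share this direction. Abcc2, tested only through its Dot1l-deleted level, had a log2 fold change of 1.19, and Abcc1 and Abcc5 were called higher with scaling but not as deposited. Abcc4 had lower values after deletion, with log2 fold changes of -0.29 as deposited and -0.11 with scaling, and was called in neither fit. Abcb1a (ENSMUSG00000040584), the P-glycoprotein of the mouse blood-brain barrier and intestine, had 0.538, 0.463 and 0.536 FPKM in Dot1l-deleted libraries, against 23.9, 25.1 and 26.8 FPKM in control libraries. The groups were far apart and each was tight: the means were 0.512 ± 0.0428 FPKM in Dot1l-deleted cells and 25.3 ± 1.43 FPKM in control cells (SD, n = 3 each), a 49.3-fold lower mean. On the log2(FPKM + 1) scale the difference was -4.12 (SE 0.130) as deposited and -3.99 with scaling. Among the 27 tested members ordered by mean level, Abcb1a stood at rank 26 in Dot1l-deleted cells and at rank 10 in control cells. In bulk RNA, fewer cells of a type and less RNA per cell cannot be told apart.

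Abcb1b, the second mouse P-glycoprotein, had 1.53, 1.51 and 1.07 FPKM in Dot1l-deleted libraries, against 4.32, 5.01 and 4.63 FPKM in control libraries. All Dot1l-deleted values were below all control values, and the mean was 3.39-fold lower (log2 fold change -1.26, SE 0.161, limma adjusted p = 0.0002925; -1.13 with scaling). The balance of both P-glycoprotein genes turned over. Abcb1a was at 0.350, 0.306 and 0.4999 times the FPKM of Abcb1b in Dot1l-deleted libraries, against 5.54, 5.01 and 5.78 times in control libraries. Both genes share sequence: 17.6% of the distinct 50-base runs in Abcb1a transcripts (GENCODE M21) also occur in other genes, mostly Abcb1b, and 11.6% of those of Abcb1b occur elsewhere, so reads from these stretches may be split between the pair.

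Abcg2, the breast cancer resistance protein, which exports drugs, urate and porphyrins, had 9.60, 11.3 and 7.88 FPKM in Dot1l-deleted libraries, against 33.4, 30.1 and 35.1 FPKM in control libraries. Its groups did not overlap, and its mean was 3.43-fold lower (log2 fold change -1.69, SE 0.157, limma adjusted p = 3.095e-05; -1.52 with scaling). Abcg3, a mouse relative of Abcg2 with an atypical ATP-binding domain and no known substrate, differed in the other direction. It had 10.7, 12.3 and 8.80 FPKM in Dot1l-deleted libraries, against 0.774, 0.761 and 0.594 FPKM in control libraries, a 14.9-fold higher mean (log2 fold change 2.75, SE 0.162; 2.87 with scaling). Within libraries the FPKM of Abcg3 was 1.11, 1.09 and 1.12 times that of Abcg2 in Dot1l-deleted cells, against 0.0232, 0.0253 and 0.0169 times in control cells. Abcg3 and Abcg2 thus stood at about the same level after deletion, with Abcg3 far below Abcg2 in every control library.

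**Figure D2:**
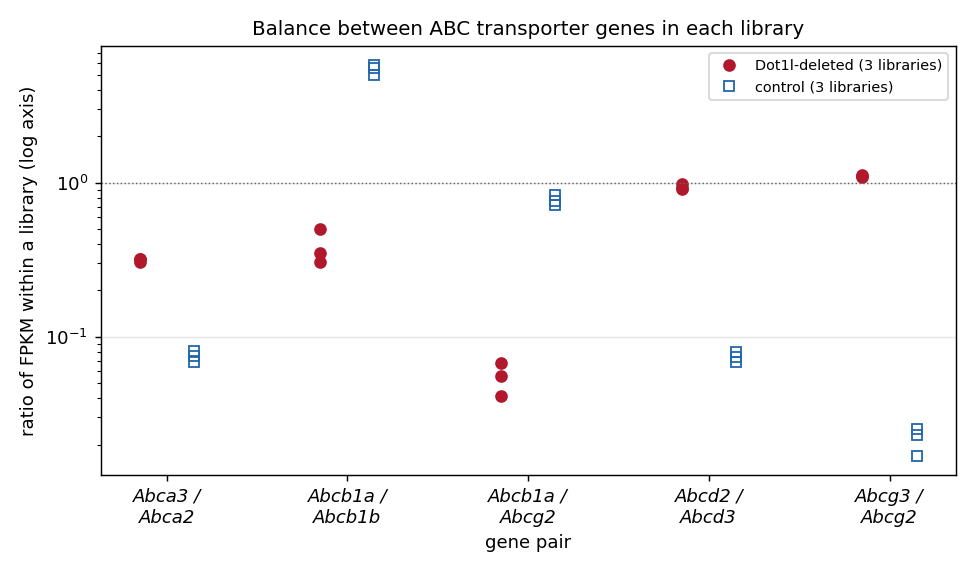
Ratio of the FPKM of 2 genes within each library on a log axis, with circles for the 3 Dot1l-deleted libraries on the left and squares for the 3 control libraries on the right of each pair; the dotted line marks equal levels. The ratio of Abcb1a to Abcb1b is 0.306 to 0.4999 in Dot1l-deleted libraries and 5.01 to 5.78 in control libraries, and that of Abcd2 to Abcd3 is 0.913 to 0.989 in Dot1l-deleted libraries and 0.0687 to 0.0795 in control libraries.

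In subfamily A, whose members mostly move lipids, 5 of 16 genes were tested, and 2 were called higher and 2 lower. Over all tested genes, 7.43% were called higher and 12.2% lower. Abca13 and Abca4 each passed the filter only through 1 group and so had to differ. Abca3, which loads surfactant phospholipids into lamellar bodies of the lung, had 7.78, 6.89 and 5.39 FPKM in Dot1l-deleted libraries, against 2.81, 2.53 and 2.38 FPKM in control libraries (log2 fold change 1.09, SE 0.159, limma adjusted p = 0.0007033). Abca13, the longest member of the subfamily, had 3.61, 3.53 and 2.84 FPKM in Dot1l-deleted libraries, against 0.280, 0.290 and 0.322 FPKM in control libraries, an 11.2-fold higher mean (log2 fold change 1.73, SE 0.180). Both had every Dot1l-deleted value above every control value. Abca2, an endosomal and lysosomal transporter abundant in brain, had 25.4, 21.5 and 16.9 FPKM in Dot1l-deleted libraries, against 34.6, 36.8 and 31.8 FPKM in control libraries (log2 fold change -0.68, SE 0.171, limma adjusted p = 0.01731). This call was lost without the second Dot1l-deleted library (adjusted p = 0.05394) and without control library 1, 2 or 3 (adjusted p = 0.07858, 0.1059 and 0.054), while with scaling the log2 fold change was -0.51 and the adjusted p 0.002341.

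Abca4, which clears retinoid adducts from photoreceptor discs in the retina, had 0.173, 0.217 and 0.147 FPKM in Dot1l-deleted libraries, against 2.06, 2.28 and 2.36 FPKM in control libraries. It was low in both groups, with a 12.5-fold lower mean after deletion (log2 fold change -1.45, SE 0.188). Abca7, linked to phagocytosis and phospholipid handling, was not called as deposited (log2 fold change 0.19, adjusted p = 0.3848) and was called higher with scaling (0.37, adjusted p = 0.003204). Abca1, the main exporter of cholesterol to lipid-poor apolipoprotein A-I, was below the filter, with 0.547 to 0.768 FPKM in Dot1l-deleted libraries and 0.555 to 0.764 FPKM in control libraries, overlapping ranges. The within-library ratio of Abca3 to Abca2 was 0.306, 0.321 and 0.319 in Dot1l-deleted cells, against 0.0813, 0.0688 and 0.0747 in control cells.

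**Figure D3:**
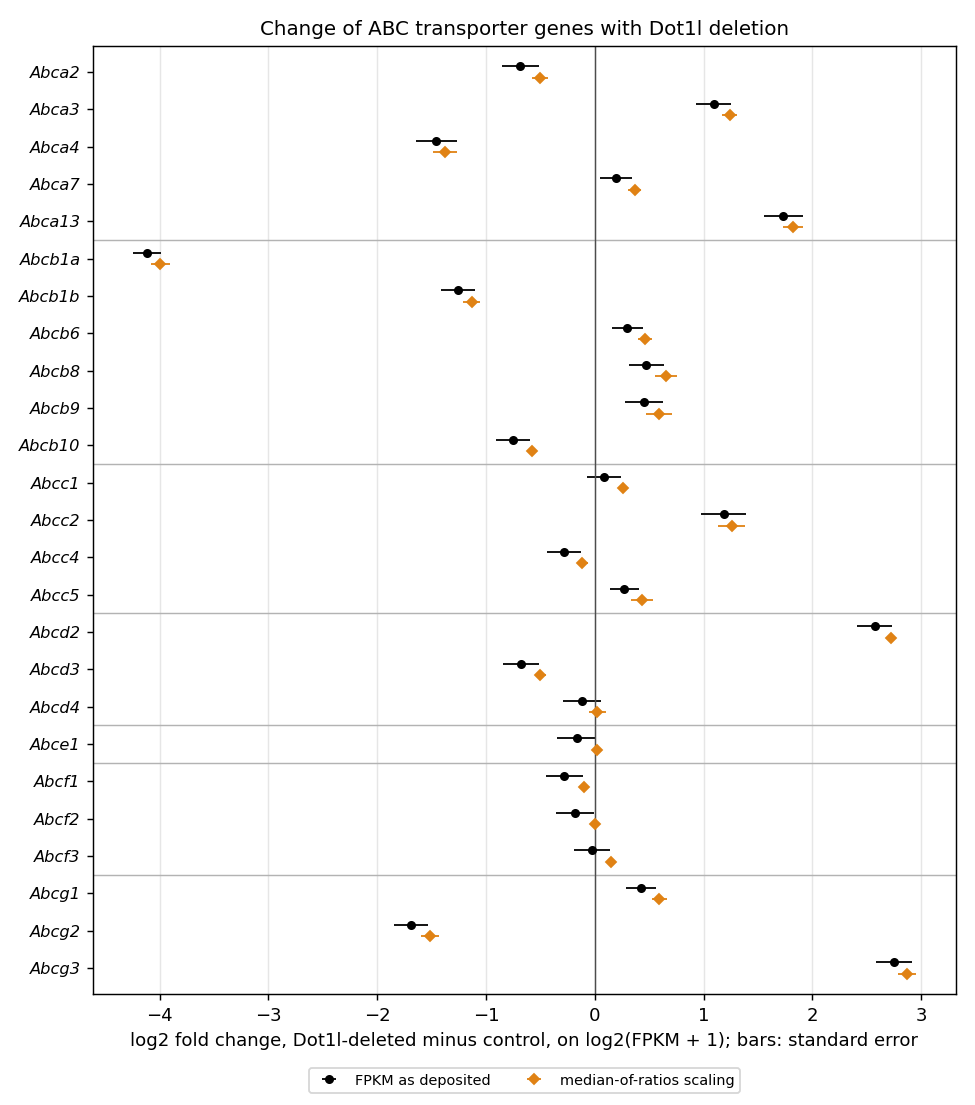
Log2 fold change of 25 of the 27 tested ABC transporter genes, Dot1l-deleted minus control, on log2(FPKM + 1), with bars of 1 standard error from limma; black circles use FPKM as deposited and orange diamonds median-of-ratios scaling. Abcb1a lies farthest left at -4.12 as deposited and Abcg3 farthest right at 2.75; scaled values lie to the right of the deposited ones.

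The mitochondrial members of subfamily B did not move together. Abcb10, an inner-membrane transporter needed for heme synthesis in red cell precursors, had 24.3, 24.6 and 18.0 FPKM in Dot1l-deleted libraries, against 38.3, 37.9 and 37.2 FPKM in control libraries, with no overlap (log2 fold change -0.75, SE 0.160, limma adjusted p = 0.007653; -0.57 with scaling). Abcb8, an inner-membrane protein tied to iron export and a potassium channel, had 55.8, 52.0 and 45.0 FPKM in Dot1l-deleted libraries, against 41.1, 32.3 and 35.7 FPKM in control libraries. Its groups did not overlap either, yet its log2 fold change of 0.47 was called only with scaling (adjusted p = 0.06632 as deposited; 0.66 and adjusted p = 0.00266 with scaling).

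Abcb6, a porphyrin transporter, had 10.4, 11.4 and 8.57 FPKM in Dot1l-deleted libraries, against 8.001, 8.43 and 7.52 FPKM in control libraries. Its log2 fold change was 0.30 as deposited and 0.47 with scaling (limma adjusted p = 0.1741 and 0.001867), and 50% of its 50-base runs are shared with Gm29253, an annotated transcript on the same strand. Abcb9, a lysosomal peptide transporter related to TAP, had log2 fold changes of 0.46 and 0.59 in the same order (limma adjusted p = 0.09468 and 0.007941). Abcb4, the phosphatidylcholine flippase of bile canaliculi, was below the filter but apart between groups, with 1.47, 1.39 and 0.800 FPKM in Dot1l-deleted libraries and 0.439, 0.689 and 0.560 FPKM in control libraries. Abcb4 was not tested, and with no filter it was not among the members called.

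Subfamily C holds the multidrug resistance proteins, which export conjugates of glutathione, leukotriene C4 and cyclic nucleotides; 4 of its 10 genes were tested. Abcc2, the canalicular exporter of bilirubin glucuronides in liver, had 1.77, 2.28 and 1.42 FPKM in Dot1l-deleted libraries, against 0.180, 0.255 and 0.261 FPKM in control libraries. This was a 7.86-fold higher mean at a low level, with no overlap (log2 fold change 1.19, SE 0.207). The other three had higher levels and smaller log2 fold changes. Abcc1, the glutathione and leukotriene C4 exporter, had 22.3, 20.3 and 15.8 FPKM in Dot1l-deleted libraries and 19.0, 17.8 and 17.4 FPKM in control libraries, overlapping ranges (log2 fold change 0.09, limma adjusted p = 0.7261; 0.26 and adjusted p = 0.004826 with scaling). Abcc4, which exports cyclic nucleotides and prostaglandins, had log2 fold changes of -0.29 as deposited and -0.11 with scaling (limma adjusted p = 0.238 and 0.09907). Abcc5, a further cyclic nucleotide exporter, had 0.27 and 0.44 (limma adjusted p = 0.1944 and 0.01466).

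All 4 genes of subfamily D were tested, and the levels of its peroxisomal fatty acid importers Abcd2 and Abcd3 moved towards each other. Abcd2, an importer of very long-chain acids, had 22.8, 24.2 and 16.6 FPKM in Dot1l-deleted libraries, against 2.78, 2.69 and 2.59 FPKM in control libraries. Every Dot1l-deleted value lay far above the tight control values, a 7.90-fold higher mean (log2 fold change 2.57, SE 0.159, limma adjusted p = 2.09e-06; 2.73 with scaling), and Abcd2 stood at rank 9 of the tested members in Dot1l-deleted cells and at rank 21 in control cells. Abcd3, the importer of branched-chain acids and bile acid precursors, had 24.8, 24.5 and 18.2 FPKM in Dot1l-deleted libraries, against 37.3, 33.8 and 37.7 FPKM in control libraries (log2 fold change -0.68, SE 0.163, limma adjusted p = 0.01409). Its call was lost without control library 1, 2 or 3 (adjusted p = 0.07885, 0.056 and 0.08314); with scaling the log2 fold change was -0.50 and the adjusted p 0.000458.

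Within libraries the FPKM of Abcd2 was 0.920, 0.989 and 0.913 times that of Abcd3 in Dot1l-deleted libraries, against 0.0745, 0.0795 and 0.0687 times in control libraries. Abcd4, a lysosomal transporter of cobalamin, had log2 fold changes of -0.11 as deposited and 0.02 with scaling (limma adjusted p = 0.6799 and 0.8268).

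None of the 4 ribosome factors of subfamilies E and F was called as deposited by limma, and 3 of them, Abce1, Abcf1 and Abcf2, had the highest mean levels of the family in both groups. Abce1, which splits ribosomes after termination, had 130.7, 135.0 and 97.4 FPKM in Dot1l-deleted libraries and 135.3, 132.4 and 135.8 FPKM in control libraries. Only the third Dot1l-deleted library lay clearly below the others (log2 fold change -0.17, limma adjusted p = 0.546; 0.02 with scaling). Abcf1, which works with initiation factor eIF2, had -0.28 and -0.10 with scaling; Abcf2 had -0.18 and -0.0012 with scaling (limma adjusted p = 0.2905 and 0.4911 as deposited). Abcf3, described in mouse as an antiviral partner of Oas1b, had -0.03, and 0.15 with scaling (limma adjusted p = 0.9181 and 0.01614). Abce1 made up 19.9% to 20.9% of the members' summed FPKM in Dot1l-deleted libraries and 19.9% to 20.6% in control libraries, and subfamily F made up 28.8% to 29.4% in Dot1l-deleted libraries and 28.9% to 30.2% in control libraries.

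In order of mean level, Abce1, Abcf1 and Abcf2 came first in both groups. Their means were 121.1 ± 20.6, 74.4 ± 11.5 and 71.3 ± 12.5 FPKM in Dot1l-deleted cells, and 134.5 ± 1.83, 89.9 ± 5.29 and 80.2 ± 1.42 FPKM in control cells (SD, n = 3 each). Abcf1 and Abcf2 overlapped in Dot1l-deleted libraries and not in control libraries. The next 5 in control cells, Abcb10, Abcb8, Abcd3, Abca2 and Abcg2, had means from 32.9 to 37.8 FPKM there, with neighbours whose values overlapped. The coefficient of variation of the tested members among control libraries was 0.867% to 19.4%, with a median of 5.98%.

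In subfamily G, Abcg1, which exports cholesterol to high-density lipoprotein in macrophages, had 16.6, 17.3 and 13.9 FPKM in Dot1l-deleted libraries, against 11.2, 12.4 and 11.2 FPKM in control libraries. Its groups did not overlap, but its log2 fold change of 0.42 was called only with scaling (limma adjusted p = 0.05764; 0.59 and adjusted p = 0.001024 with scaling). Abcg4, a sterol exporter of brain, was below the filter with 0.263, 0.213 and 0.248 FPKM in Dot1l-deleted libraries and 0.114, 0.0346 and 0.0251 FPKM in control libraries. Abca9 was lower still, with 0.146, 0.0888 and 0.0792 FPKM in Dot1l-deleted libraries and 0.0164 and 0.0128 FPKM in a pair of control libraries, the other one listed at 0. Abcb4, Abcg4 and Abca9 were the 3 members below the filter whose groups did not overlap with a higher mean of at least 0.1 FPKM. The sterol exporters Abcg5 and Abcg8, whose exons overlap on opposite strands, had group means of 0.0123 and 0.00703 FPKM in Dot1l-deleted cells and 0.0314 and 0.00311 FPKM in control cells.

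The genes next to members differed by locus. On chromosome 5 the order of protein-coding genes in RefSeq is Rundc3b, Abcb1a, Abcb1b, Abcb4 and Crot. Rundc3b, whose gene span overlaps that of Abcb1a, had 1.20, 1.12 and 0.853 FPKM in Dot1l-deleted libraries, against 8.57, 7.38 and 9.71 FPKM in control libraries, an 8.08-fold lower mean (log2 fold change -2.21, SE 0.159, limma adjusted p = 5.538e-06). No exon overlap between the pair is annotated in GENCODE M21. Crot, a peroxisomal carnitine acyltransferase at the far end, had 14.6, 14.9 and 11.6 FPKM in Dot1l-deleted libraries, against 16.9, 18.7 and 18.0 FPKM in control libraries, and was not called as deposited (log2 fold change -0.37, limma adjusted p = 0.1018). Crot was called lower with scaling (-0.20, adjusted p = 0.03591) and without Dot1l-deleted library 3 (-0.26, adjusted p = 0.02018). Rundc3b, Abcb1a and Abcb1b, with lower means after deletion, were adjacent; Abcb4 beyond them was below the filter and not tested.

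On chromosome 3 the order is F3, Abcd3, Arhgap29, Abca4 and Gclm. Arhgap29, a GTPase-activating protein between a pair of members called lower, had 0.805, 0.992 and 0.605 FPKM in Dot1l-deleted libraries, against 2.12, 2.15 and 2.35 FPKM in control libraries (log2 fold change -0.84, SE 0.181). It passed the filter only through the control group and so had to differ. Gclm, a subunit of the first enzyme of glutathione synthesis on the other side of Abca4, had a log2 fold change of 0.46 and was not called as deposited (limma adjusted p = 0.085). Gclm was called higher with scaling (0.64, adjusted p = 6.165e-05) and without Dot1l-deleted library 3 (0.60, adjusted p = 0.0007258). F3, tissue factor, was below the filter with overlapping groups. These neighbours were read after the members' values were known.

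**Figure D4:**
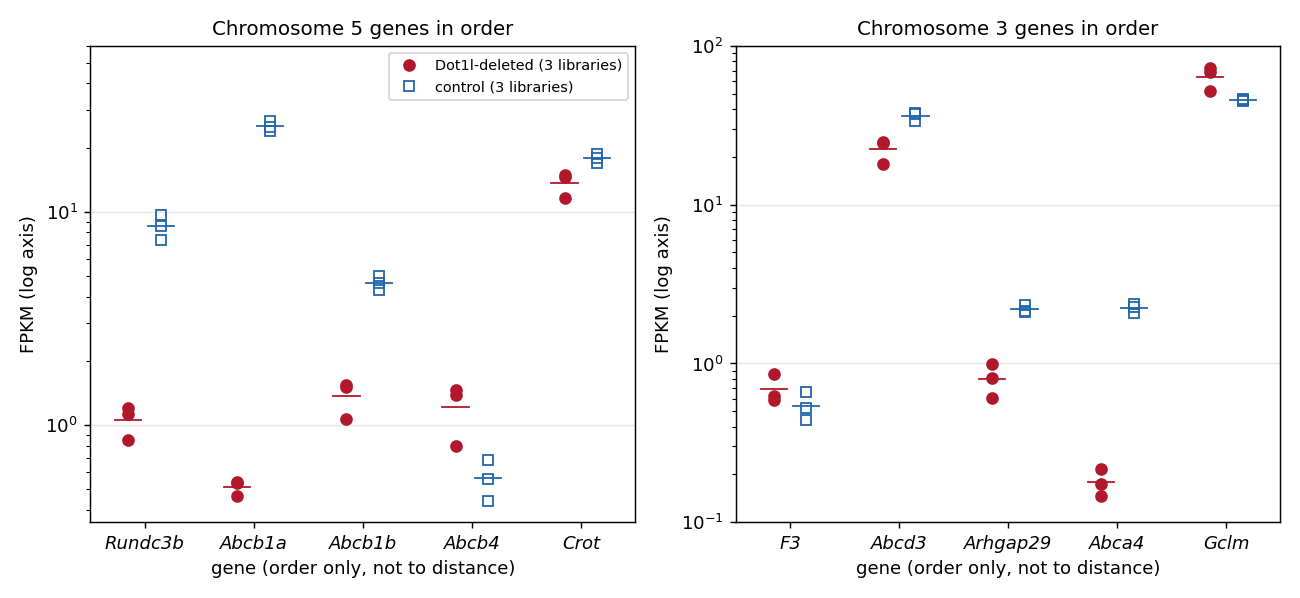
FPKM on a log axis of genes in RefSeq order around Abcb1a on chromosome 5 (left panel) and between Abcd3 and Abca4 on chromosome 3 (right panel), spaced by order and not by distance; circles are the 3 Dot1l-deleted libraries, squares the 3 control libraries, and horizontal lines the group means. The points of Rundc3b, Abcb1a, Abcb1b, Crot, Arhgap29, Abcd3 and Abca4 lie lower in Dot1l-deleted libraries, Crot being not called as deposited, and those of Gclm lie higher. Those of Abcb4, which was not tested, lie at 0.800 to 1.47 FPKM in Dot1l-deleted and 0.439 to 0.689 FPKM in control libraries.

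ABC genes that the symbol rule leaves out also differed. Cftr, a chloride channel built on the ABC fold, had 10.6, 11.9 and 8.57 FPKM in Dot1l-deleted libraries, against 2.08, 3.09 and 2.55 FPKM in control libraries, a 4.03-fold higher mean (log2 fold change 1.67, SE 0.167, limma adjusted p = 5.168e-05). Tap1 and Tap2 form the pump that brings peptides to MHC class I molecules. Tap1 had 16.2, 14.4 and 10.3 FPKM in Dot1l-deleted libraries, against 32.3, 30.6 and 30.1 FPKM in control libraries. Tap2 had 37.2, 34.8 and 24.4 FPKM in Dot1l-deleted libraries, against 70.1, 66.4 and 63.2 FPKM in control libraries. Both were called lower (log2 fold changes -1.15 and -1.05, limma adjusted p = 0.0008591 and 0.002307). Of 13 genes for peptide supply and loading on MHC class I, these included, 0 were called higher and 5 lower, the others being the immunoproteasome subunits Psmb8 (2.82-fold lower mean) and Psmb9 (2.75-fold lower) and the class I heavy chain H2-K1 (1.62-fold lower). The call of H2-K1 was lost without control library 1, 2 or 3 (limma adjusted p between 0.0903 and 0.134). With scaling 1 was called higher and 6 lower. For this list and those below, the shares over all tested genes were 7.43% higher and 12.2% lower as deposited, and 23% and 22.3% with scaling.

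Of 11 tested genes of sterol efflux and the liver X receptors (LXR), which switch on Abca1 and Abcg1, 4 were called higher and 1 lower, and 4 and 3 with scaling. The shares over all tested genes were 7.43% and 12.2% as deposited, and 23% and 22.3% with scaling. Higher were Soat1, which esterifies cholesterol (3.57-fold), the receptor gene Nr1h3 (2.89-fold, tested only through its Dot1l-deleted level), the lipid carrier Apoe (2.06-fold) and Mylip, which degrades the LDL receptor (1.796-fold); lower was the lysosomal cholesterol exporter Npc1 (1.48-fold). Without Dot1l-deleted library 2 the calls of Npc1 and Mylip were lost, and without each control library that of Npc1 and 1 of Mylip and Apoe (limma adjusted p up to 0.161). Of 13 tested genes of sterol synthesis and uptake, 1 was called higher and 0 lower by limma, and with scaling 4 were called higher and 1 lower. Hmgcs1, an early enzyme of sterol synthesis, has 2 rows listed at 0 in all 6 libraries, although cells in general use this gene, so a listing at 0 here can be a failed estimate.

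Among 14 partners of the mitochondrial transporters in iron and heme handling, 1 was called higher and 1 lower as deposited, and 4 and 4 with scaling. The shares over all tested genes were 7.43% and 12.2% as deposited, and 23% and 22.3% with scaling. The higher one was Alas1, the housekeeping form of the first heme enzyme, with 104.5, 104.8 and 73.0 FPKM in Dot1l-deleted libraries, against 30.7, 29.0 and 28.1 FPKM in control libraries (log2 fold change 1.63, SE 0.179, limma adjusted p = 9.802e-05). The lower one was Alas2, its erythroid form, at a 1.89-fold lower mean (limma adjusted p = 0.0417), a call lost without Dot1l-deleted library 2 or any 1 control library (adjusted p between 0.0684 and 0.14). Of 12 tested partners in peroxisomal fatty acid and cobalamin handling, 1 was called higher, the fatty acid transporter Slc27a4 (1.504-fold), and 1 lower, the oxidation enzyme Hsd17b4 (1.503-fold); with scaling the counts were 5 and 4. The Slc27a4 call was lost without any 1 library other than Dot1l-deleted library 3 (limma adjusted p between 0.113 and 0.184), and the Hsd17b4 call without any 1 control library (between 0.112 and 0.15).

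Of 13 genes supplying glutathione and leukotrienes to the subfamily C pumps, 3 were called higher and 4 lower, beside 7.43% and 12.2% of all tested genes. Glutathione reductase Gsr was 3.25-fold higher, and the glutathione transferases Gstm1 and Gsta4 were 2.97-fold and 2.09-fold higher. Lower were Alox5, the first enzyme of leukotriene synthesis (1.97-fold), Nqo1 (1.604-fold), Hmox1 and Gstp1, of which Alox5 alone kept its call with each library left out (Nqo1 lost it without control library 2 or 3, and Hmox1 and Gstp1 without any 1 library other than Dot1l-deleted library 3); with scaling 7 were called higher and 3 lower. Of 10 translation partners of subfamilies E and F, 0 were called in either direction by limma as deposited, and 1, the eIF2 kinase gene Eif2ak4, was called lower with scaling (log2 fold change -0.38 as deposited, limma adjusted p = 0.1336).

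Markers of maturing myeloid cells moved with the same groups. Beside the counts below, 7.43% of all tested genes were called higher and 12.2% lower. All 9 tested of 11 matched neutrophil markers were called higher, with a summed level of 20740 to 24590 FPKM in Dot1l-deleted libraries and 1006 to 1228 FPKM in control libraries. Of 9 tested monocyte and macrophage markers, 7 were called higher and 1, Ccr2, lower. Their summed level was 474.7 to 557.8 FPKM in Dot1l-deleted libraries and 137.3 to 155.7 FPKM in control libraries. Lyz2 alone had 367.7 to 412.7 FPKM in Dot1l-deleted libraries and 46.7 to 65.8 FPKM in control libraries. Of 8 progenitor markers, 6 were called lower, among them Hoxa9 (25.6-fold), Flt3 (16.6-fold), Meis1 (6.80-fold) and Cd34 (6.10-fold), and 1, Mpo, higher; because Mpo is abundant their summed level was 2181 to 3173 FPKM in Dot1l-deleted libraries and 1954 to 2042 FPKM in control libraries. Of 7 tested mast cell and basophil markers, 1 was called higher and 4 lower (summed 1551 to 2252 FPKM in Dot1l-deleted and 2444 to 2687 FPKM in control libraries). Of 8 erythroid markers 3 were called higher and 3 lower (111.0 to 154.5 FPKM in Dot1l-deleted and 102.0 to 108.5 FPKM in control libraries). Of 5 tested megakaryocyte markers 2 were called higher and 2 lower (67.1 to 88.2 FPKM in Dot1l-deleted and 117.5 to 124.3 FPKM in control libraries). The lymphoid genes Ms4a1, Cd3g, Cd8a and Ncr1 and the fibroblast gene Dcn were listed at 0 in all 6 libraries, which can be a failed estimate. Other genes of these lists had low values. Mean FPKM in Dot1l-deleted and control cells was 0.0992 and 0.0758 for Cd79a, 0.113 and 0.113 for Cd4, and 0.297 and 1.06 for Col1a2. The tested B cell marker (Cd79b) and T and NK cell marker (Nkg7) were each called higher. Of the fibroblast and endothelial markers Acta2 was called higher and Pecam1 lower. Ltf, Retnlg, Fcgr1, Csf1r, Hba-a1 and Ppbp were among those that passed the filter only through the Dot1l-deleted group. Among these marker calls, those of Hdc, Tpsb2, Alas2, Hbb-b1, Gp1ba, Pf4 and Pecam1 were each lost without at least 1 library. The summed levels of these last 3 lists were 4.10 to 5.60, 107.5 to 157.5 and 44.0 to 60.2 FPKM in Dot1l-deleted libraries and 1.19 to 1.67, 53.8 to 64.9 and 63.1 to 70.7 FPKM in control libraries. The part of cell maturation in the changes of the ABC genes was not tested.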

How the data were processed

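RNA of 3 Dot1l-deleted and 3 control libraries, made with a stranded mRNA kit per the labels' protocols, was read from 6 tables, 1 per library. The authors deposited 1 FPKM value per Ensembl gene in each; the build was mm9 and the tools were GSNAP, SAMtools, CASAVA 1.8.2 and Cuffdiff, per the submitters' processing notes. The sources used here do not say how strand was used in counting or how shared reads were assigned.

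The 378 genes with a placeholder value in any library were left out, none of them a member (0). Total depth is unknown. A rough relative depth was read from short RNA genes above 0, as the inverse of their most common FPKM ratio to the first control library. That ratio was shared by only 28 to 45 of 179 to 193 genes per library. It put the depth at 0.737 to 0.895 of the first control library's in Dot1l-deleted libraries and 0.785 to 0.853 in the remaining control libraries. The 11924 genes with a mean of at least 1 FPKM were fitted with limma 3.58.1 in R 4.3.3 on log2(FPKM + 1), using eBayes and a trend of variance with mean, two-sided, with Benjamini-Hochberg adjustment over all of them at 0.05. The script was checked on simulated data. Members were matched by symbol, and the tested members, plus those below the filter whose groups did not overlap at a mean of at least 0.1 FPKM, were named, apart from 2 tested members and some list genes not reported here; from each companion list, up to 4 genes with the smallest adjusted p were named, and others to complete small counts. The members and gene lists were chosen with earlier results of these data known. The libraries were treated as unpaired, because the labels name no source shared by libraries of the same replicate number. Deviations of same-numbered libraries correlated at -0.030, -0.038 and 0.013, which shows no pairing but cannot exclude a shared source. Promoters are RefSeq's (GRCm38.p6), which was not the files' build; shared 50-base runs and exon overlaps are from GENCODE M21, which matched 50 of 51 members by gene ID. Alternatives covered pseudocounts of 0.1 and 5, filters of none and 0.5, median-of-ratios and quantile scaling, the trend, a replicate block, the placeholder read as missing and each library left out.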

Additional observations from a re-analysis of the deposited data

How the results depend on the processing

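As deposited, 5 members were called higher and 7 lower, Abcb1a included, and both counts stood under pseudocounts of 0.1 and 5, a filter of 0.5 FPKM, no variance trend, the placeholder read as missing, and the replicate block (5 and 7). With no filter they were 7 and 7, Abca9 and Abcg4 being added. The count called higher was 14 with median-of-ratios scaling, with quantile normalization, with the replicate block plus median-of-ratios scaling, and with that scaling and only the first and second Dot1l-deleted libraries; leaving out each library gave 5 to 13, the 13 without Dot1l-deleted library 3. The count called lower was 8 with quantile normalization and 5 to 7 with each library left out, the 5 without any 1 of the control libraries. Over all tested genes, 886 were called higher and 1459 lower as deposited, against 2740 and 2661 with median-of-ratios scaling and 2069 and 2504 without Dot1l-deleted library 3.

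Of the members' log2 fold changes, 4 changed sign, all from values not called as deposited. With each library left out, Abcc1 ranged between -0.01267 (without Dot1l-deleted library 1) and 0.2238, Abcd4 between -0.2103 and 0.04873, and Abcf3 between -0.1201 and 0.1268, the last 2 being above 0 without Dot1l-deleted library 3. Abcd4 was 0.02455 with median-of-ratios scaling and with the replicate block plus that scaling, and 0.07176 with scaling and without Dot1l-deleted library 3. Abce1 was 0.01782, 0.01782 and 0.01103 in the scaled, scaled and blocked, and scaled fits lacking that library. Abcf3 was 0.1486 in the first 2 of these fits, 0.1546 in the last and 0.1438 with quantile normalization. The cause was not tested. With 3 libraries per group and no read counts, precision at low FPKM is limited, and the replicates' source is unknown.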
